A study of Mus musculus with 4 samples.

Results

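A set of 6 genes of gastric mucous epithelium was followed in single cells of the injured mouse pancreas: the gastrokines Gkn1, Gkn2 and Gkn3, the protease gene Ctse, the adhesion gene Vsig1 and the annexin gene Anxa10. They are given as a list of names, which was drawn up with earlier results of these data known, and are 6 of the 32288 features in the deposited tables. All 4 mice carried the genotype Ptf1aCre-ERTM;ROSAYFP/+ (strain label: Backcrossed into CD-1) and were 10 weeks old when injury began. Cre was driven by Ptf1a, a gene of acinar cells, and tamoxifen (5 mg/day by gavage, 5 days/week for 2 weeks) switched on the EYFP label before injury. Caerulein, a peptide that overstimulates acinar cells and causes pancreatitis, was then given 5 days/week with 2 days of recovery, for 2 weeks in 2 mice and for 4 weeks in 2 mice. EYFP-positive cells were sorted and 10x Genomics 3′ libraries were made from them. No uninjured mouse is among the samples analysed here, so every level below is a level in injured pancreas.

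Gastrokines are small secreted proteins of the stomach lining. In the stomach, Gkn1 and Gkn2 are products of the surface mucous cells, also called pit or foveolar cells, together with the mucin Muc5ac and the trefoil peptide Tff1, whereas mouse Gkn3 belongs to the mucous neck cells deeper in the gland, together with Muc6 and Tff2. Cathepsin E, encoded by Ctse, is an intracellular aspartic protease abundant in gastric surface epithelium, Vsig1 is an immunoglobulin-family adhesion protein of gastric epithelium, and annexin A10 is a membrane-binding protein used as a marker of gastric-type differentiation. Injured acinar cells can take on a mucous state of this gastric kind, called spasmolytic polypeptide-expressing metaplasia or SPEM.

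The 3 gastrokine genes lie side by side on mouse chromosome 6 (build GRCm38, GENCODE M21): Gkn1 at chr6:87345650-87350942 on the minus strand, Gkn2 at chr6:87373357-87379497 on the plus strand and Gkn3 at chr6:87383256-87388935 on the minus strand. No annotated gene lies in the 22414 bases between Gkn1 and Gkn2 or in the 3758 bases between Gkn2 and Gkn3, and each is a protein-coding gene of 6 exons that overlaps no other gene. Ctse is at chr1:131638306-131675505 (plus strand, up to 10 exons), Vsig1 at chrX:140907608-140939472 (plus strand, up to 7 exons) and Anxa10 at chr8:62057042-62123150 (minus strand, up to 12 exons). The 250 bases before each gastrokine start site (RefSeq, GRCm38.p6) are shown because these neighbours were measured at very different levels. Capitals mark matches, on either strand, to the motifs that were searched, which were the TATA box, TATAAA, the GATA factor motif, AGATAA, the forkhead motifs, spelled TGTTTAC or else as TGTTTGC, and the E-box motif, CAGCTG.
Gkn1, chr6:87350916-87351165, minus strand: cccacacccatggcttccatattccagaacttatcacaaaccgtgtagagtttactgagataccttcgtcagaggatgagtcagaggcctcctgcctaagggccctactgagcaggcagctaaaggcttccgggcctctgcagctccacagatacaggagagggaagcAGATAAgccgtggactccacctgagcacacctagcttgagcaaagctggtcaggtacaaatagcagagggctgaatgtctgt
Gkn2, chr6:87373115-87373364, plus strand: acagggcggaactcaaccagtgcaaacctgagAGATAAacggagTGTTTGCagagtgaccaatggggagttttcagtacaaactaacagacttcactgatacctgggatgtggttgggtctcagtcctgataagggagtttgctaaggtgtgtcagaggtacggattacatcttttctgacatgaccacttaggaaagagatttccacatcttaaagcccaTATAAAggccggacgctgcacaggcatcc
Gkn3, chr6:87388936-87389185, minus strand: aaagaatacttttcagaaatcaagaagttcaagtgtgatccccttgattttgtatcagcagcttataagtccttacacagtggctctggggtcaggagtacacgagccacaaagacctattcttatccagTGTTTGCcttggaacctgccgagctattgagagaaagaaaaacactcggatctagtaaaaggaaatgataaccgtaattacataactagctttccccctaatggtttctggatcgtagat
In the Gkn1 window, AGATAA began 82 bases before the start site. The Gkn2 window held TATAAA at 29, TGTTTGC at 206 and AGATAA at 218 bases before the start site, and the Gkn3 window held TGTTTGC at 120 bases. Of 32851 promoters with the same window, 12.4% held TATAAA, 9.99% AGATAA, 3.17% TGTTTAC, 4.30% TGTTTGC and 13.0% CAGCTG. Neither TGTTTAC nor CAGCTG was matched in any of the 5 member promoters found in the table (all but Ctse), Vsig1 held none of the motifs, and Anxa10 held TATAAA at 32 bases. These matches describe letters only.

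The tables held 13362 cells with a deposited cell type, 2814 to 3974 per mouse, with a median of 13464 to 20807 UMIs (unique molecular identifiers, each one counted RNA molecule) per cell. Every typed cell had an EYFP UMI, but these cells were deposited as the set filtered for YFP, so this follows from their selection. Exactly 1 EYFP UMI was found in 2.95% to 6.24% of MucinDuctal, 29.4% to 56.7% of Acinar/MucinDuctal and 14.3% to 65.2% of Ductal-like cells. Of B cell-like and T cell-like cells without a deposited type, 3.27% to 8.39% had an EYFP UMI. Typed cells of the 2-week mice held more UMIs (medians of 20807 and 20586) than those of the 4-week mice (15067 and 13464), whereas Acinar cells alone held fewer (26482 and 24008 against 27906 and 32664). The deposited types are Acinar, Acinar.Prolif (proliferating), Acinar/MucinDuctal, MucinDuctal, Ductal-like, Tuft (chemosensory cells), EEC (enteroendocrine, hormone-producing cells) and Tuft/EEC.Progenitor. Of the markers listed for each, 8 of 10 acinar, 5 of 8 ductal, 7 of 7 tuft, 10 of 10 enteroendocrine and 5 of 5 proliferation genes were highest in their own type. For MucinDuctal it was 5 of 10, and Muc5ac, a defining pit-cell gene in that list, stayed under 1 CPM. Of 13338 distinct barcodes among typed cells, 23 occurred in more than 1 mouse. Levels are CPM, the UMIs of a gene per 1000000 UMIs summed over the cells of a type in a mouse, and since each 3′ UMI counts a molecule once they were not divided by gene length.

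The 6 genes did not share a pattern, and the label of pit-type genes fits their levels only in part. In MucinDuctal cells Gkn3 was by far the highest of the 6, Ctse, Vsig1 and Anxa10 were at moderate levels, and Gkn1 and Gkn2, the gastrokines of pit cells, were close to 0. Mean levels over the 4 mice were 48109 ± 20672 CPM for Gkn3, 356 ± 28.3 for Ctse, 139 ± 30.7 for Vsig1, 99.5 ± 29.1 for Anxa10, 3.37 ± 2.09 for Gkn1 and 0.437 ± 0.364 for Gkn2 (SD, n = 4). The pit mucin Muc5ac averaged 0.17 ± 0.18 CPM and Tff1 79.1 ± 61.2 CPM there, against 4384 ± 1875 CPM for the neck mucin Muc6 and 34953 ± 16624 CPM for Tff2 (SD, n = 4). MucinDuctal cells were 29.8% of typed cells. Of the UMIs in typed cells they held 87.2% for Gkn1, 94.3% for Gkn2, 86.3% for Gkn3, 78.8% for Ctse and 83.1% for Vsig1. Anxa10 was spread more widely, with 53.0% of its UMIs in typed cells in MucinDuctal, 19.6% in Acinar and 15.5% in Tuft cells. Cells without a deposited type, left out of these shares, held a further 27 Gkn1 UMIs and also UMIs of Gkn3, Ctse, Vsig1 and Anxa10. Deposited types rest on the same counts, so differences between types are given as descriptions with no test.

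**Figure D1:**
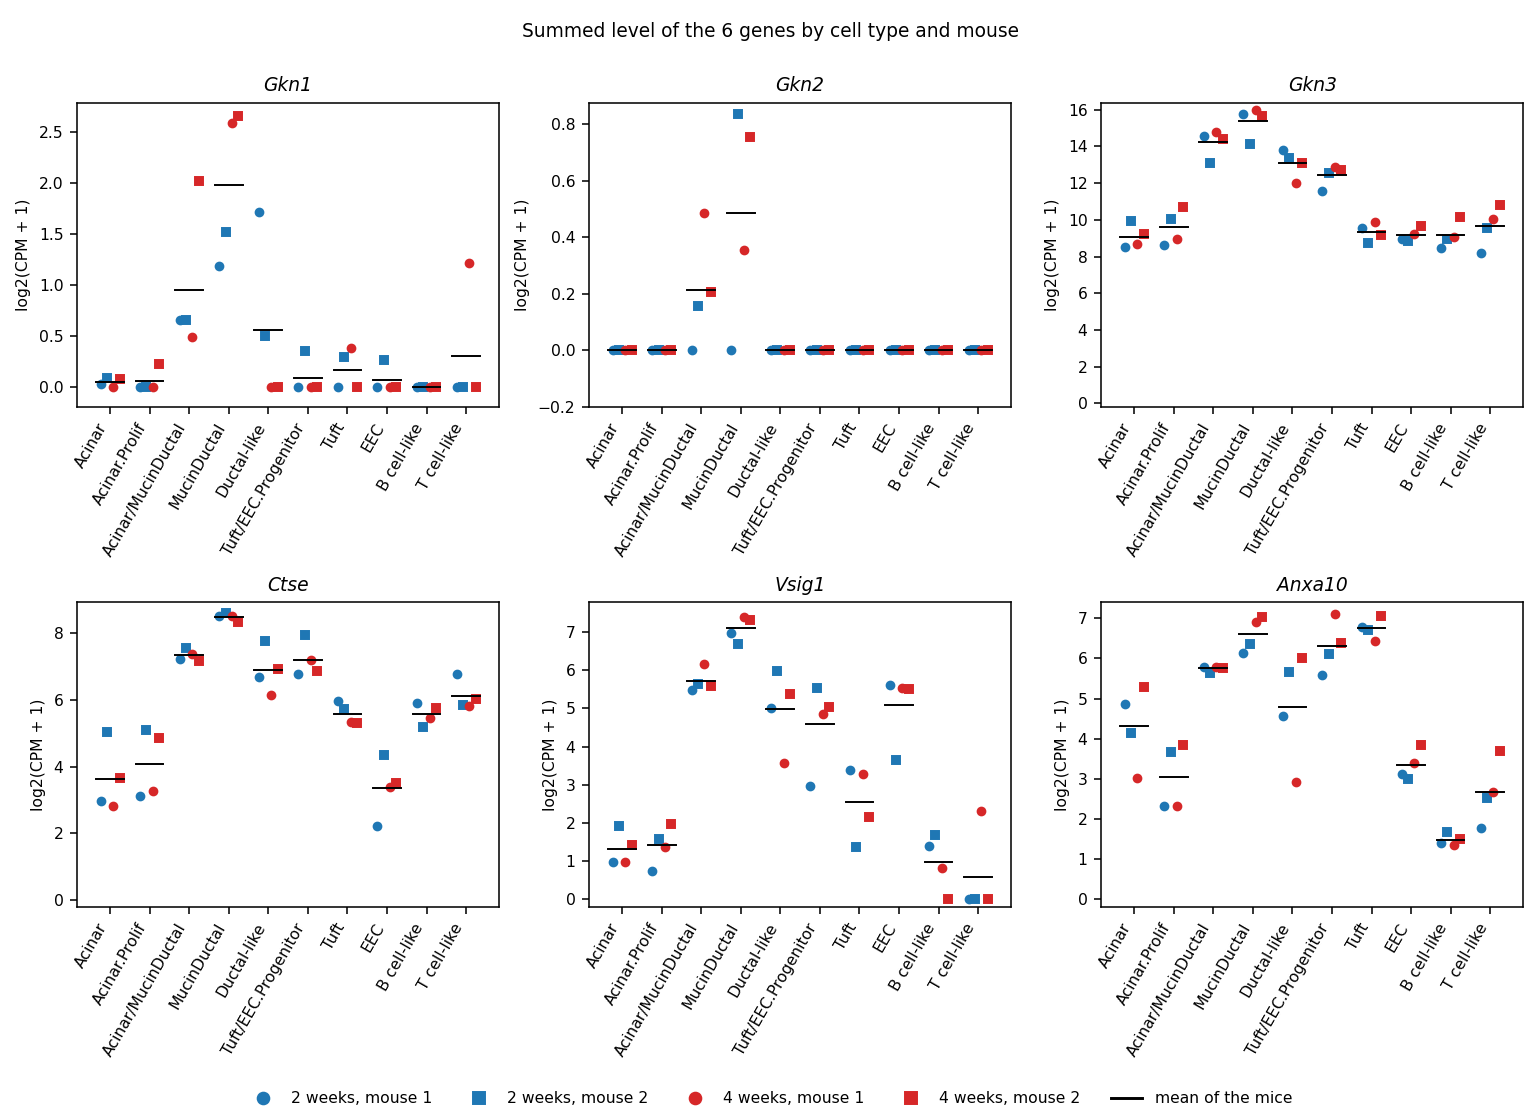
Level of each gene, as log2(CPM + 1), in the 8 deposited cell types and in B cell-like and T cell-like cells without a deposited type; each point is the summed count of 1 mouse (blue, 2 weeks; red, 4 weeks) and each line is the mean. The y axes differ between genes: Gkn3 reaches 65417 CPM in MucinDuctal cells, whereas Gkn2 does not pass 0.783 CPM; the 2-week mouse 1 point of Tuft/EEC.Progenitor rests on 10 cells.

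Gkn3 in MucinDuctal cells was 56426 and 18196 CPM in the 2-week mice and 65417 and 52398 CPM in the 4-week mice. Mouse 2 of the 2-week pair was the low one, and the groups overlapped. Gkn3 was also high in Acinar/MucinDuctal cells, at 23914 and 8867 CPM at 2 weeks and 28785 and 22034 CPM at 4 weeks. The same mouse was lowest there. Ductal-like cells had 14610 and 10619 CPM at 2 weeks and 4121 and 8884 CPM at 4 weeks, from 22 to 56 cells per mouse. Those groups did not overlap, with the 4-week mice below. Tuft/EEC.Progenitor cells came next, with 6121 CPM in 2-week mouse 2 and 7559 and 6853 CPM at 4 weeks, leaving out 2-week mouse 1 with its 10 cells. The order of mean Gkn3 levels was thus MucinDuctal (48109 CPM), Acinar/MucinDuctal (20900), Ductal-like (9558) and Tuft/EEC.Progenitor (6844), with overlapping ranges between each of these neighbours. Within mice, MucinDuctal was above Acinar/MucinDuctal in 4 of 4, Acinar/MucinDuctal above Ductal-like in 3 of 4 and Ductal-like above Tuft/EEC.Progenitor in 2 of 3.

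In the remaining types, whose means were 583 to 909 CPM, Gkn3 as a share of all UMIs was near its share in immune cells, which should lack it. Acinar cells had 361 and 964 CPM at 2 weeks and 415 and 593 CPM at 4 weeks, Tuft cells 424 to 927 CPM and EEC 468 to 811 CPM. Acinar.Prolif cells had 395, 1073, 500 and 1669 CPM in the same order. B cell-like cells of the same libraries, which carry no deposited type, had 349, 504, 529 and 1131 CPM and T cell-like cells 295, 754, 1057 and 1778 CPM, with the 4-week mice above the 2-week mice in both. In 2-week mouse 1 all 4 remaining types were above both immune references, and in 2-week mouse 2 the Acinar and Acinar.Prolif cells were. The B cell-like reference pools clusters of 552 and 79 cells. The cluster of 552 alone had 400 and 626 CPM at 2 weeks and 962 and 1447 CPM at 4 weeks. Against it, the Acinar and Acinar.Prolif cells of 2-week mouse 1 were lower. With the acinar enzymes left out of the totals, Acinar cells had 763, 1920, 1015 and 1453 CPM. They were above the pooled B cell-like cells (368, 508, 556 and 1175 CPM) in 4 of 4 mice. They were above the T cell-like cells (312, 767, 1101 and 1909 CPM) in the 2-week mice alone. Values without the enzymes were not computed for the B cell-like cluster of 552 alone. With enzymes counted, its 962 and 1447 CPM at 4 weeks were already near those of the Acinar cells. A Gkn3 UMI was present in 94.9% to 99.5% of acinar cells at a median depth of 24008 to 32664 UMIs, but also in 64.3% to 94.0% of B cell-like cells at 2906 to 3649 UMIs. With every cell thinned to 1500 UMIs the shares were 36.4% to 56.4% in acinar, 38.6% to 77.9% in B cell-like, 35.2% to 79.3% in T cell-like and 93.5% to 99.5% in MucinDuctal cells. Per cell, the deeper acinar cells held more, with a mean of 12.4, 28.7, 14.2 and 23.7 Gkn3 UMIs, and Tuft cells held 8.54 to 15.7 and EEC 6.61 to 9.99. B cell-like cells held a mean of 1.51 to 4.60 and T cell-like cells 1.13 to 5.63. The part of free RNA in the Gkn3 values of these types was not tested.

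**Figure D2:**
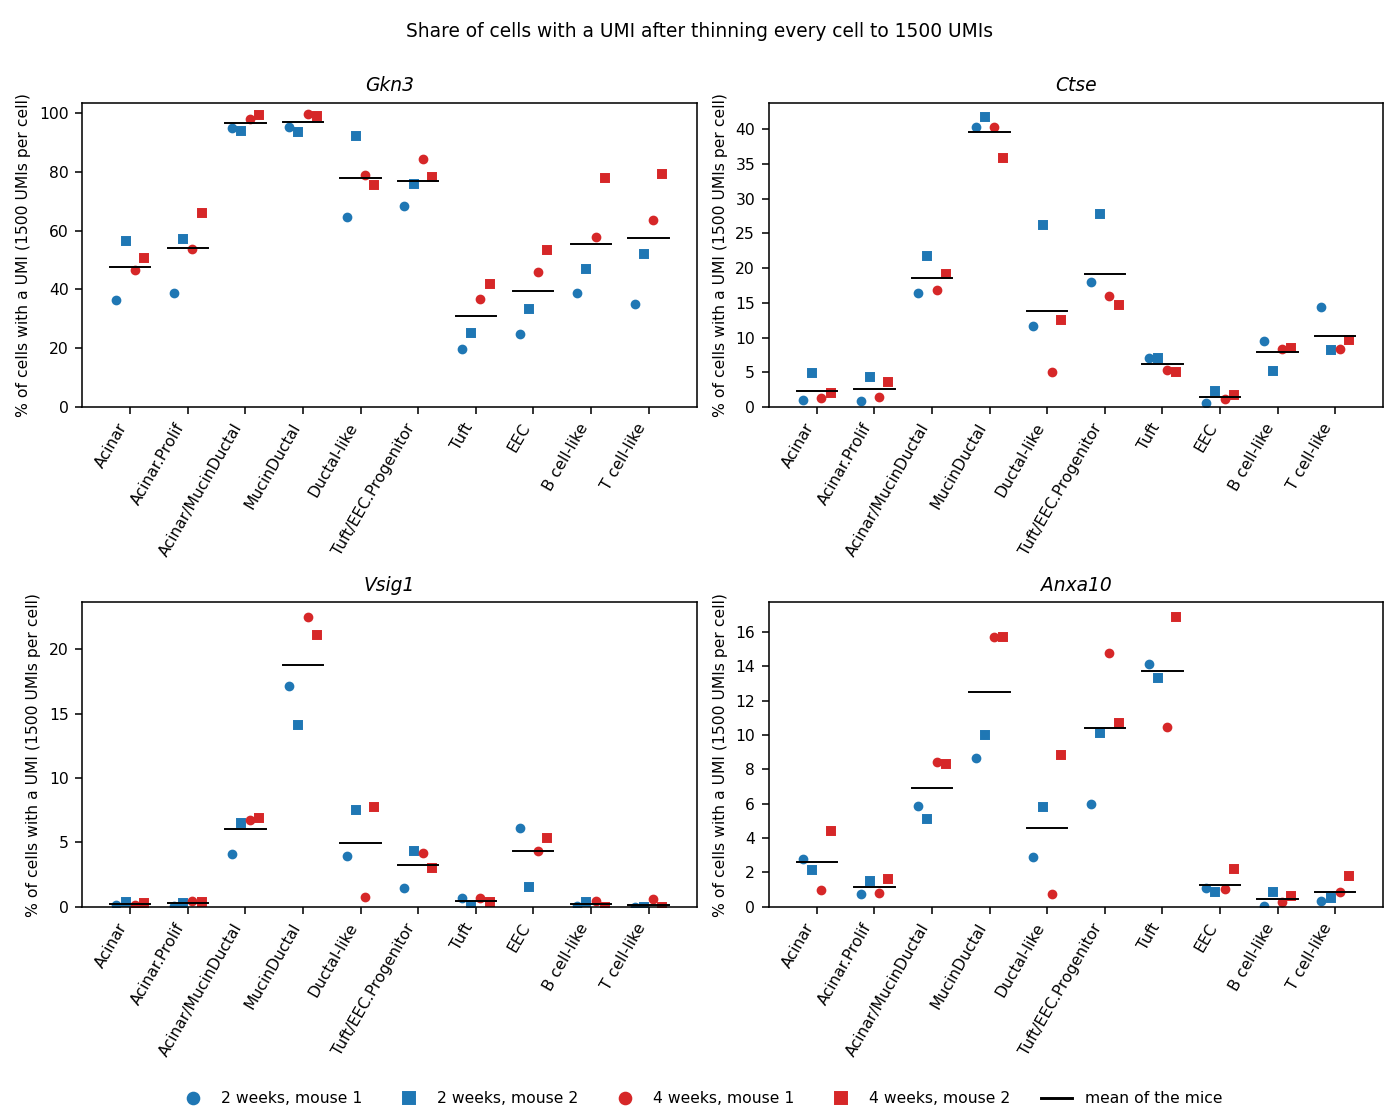
Percent of cells with at least 1 UMI of Gkn3, Ctse, Vsig1 or Anxa10 after thinning each cell to 1500 UMIs, by cell type and mouse (points; lines are means), with B cell-like and T cell-like cells as reference. Gkn3 is found in 35.2% or more of the reference cells, whereas Vsig1 and Anxa10 are found in at most 1.79% of them.

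Within MucinDuctal cells Gkn3 separated the 2 clusters that the authors' labels number 1 and 2. Cluster 1 had 17648 and 8934 CPM at 2 weeks and 23031 and 21385 CPM at 4 weeks, and cluster 2 had 70148 and 58080 CPM at 2 weeks and 74618 and 75250 CPM at 4 weeks. Cluster 2 was higher in 4 of 4 mice, which is a description because clusters rest on the same counts. Acinar/MucinDuctal cells were split as well. Their cluster 3 had a mean Gkn3 level of 8518 CPM (4412 to 11342 over the mice). Their cluster 4 had 35340 CPM (13069 to 44679), a higher mean than the 17749 CPM of MucinDuctal cluster 1. The order of types given above thus does not hold for every cluster. Cluster 2 made up 69.5%, 18.0%, 76.3% and 56.4% of MucinDuctal cells in 2-week mouse 1, 2-week mouse 2, 4-week mouse 1 and 4-week mouse 2. The mouse with the lowest Gkn3 level, 2-week mouse 2, was also the one with the smallest share of cluster 2. Share and level are not independent, since clusters rest on the same counts. That mouse was also the lowest within cluster 1 (8934 CPM) and within cluster 2 (58080 CPM). Pepsinogen C (Pgc), an enzyme precursor of gastric gland cells, was likewise lowest in that mouse (1252 CPM against 30113 to 66986 CPM).

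**Figure D3:**
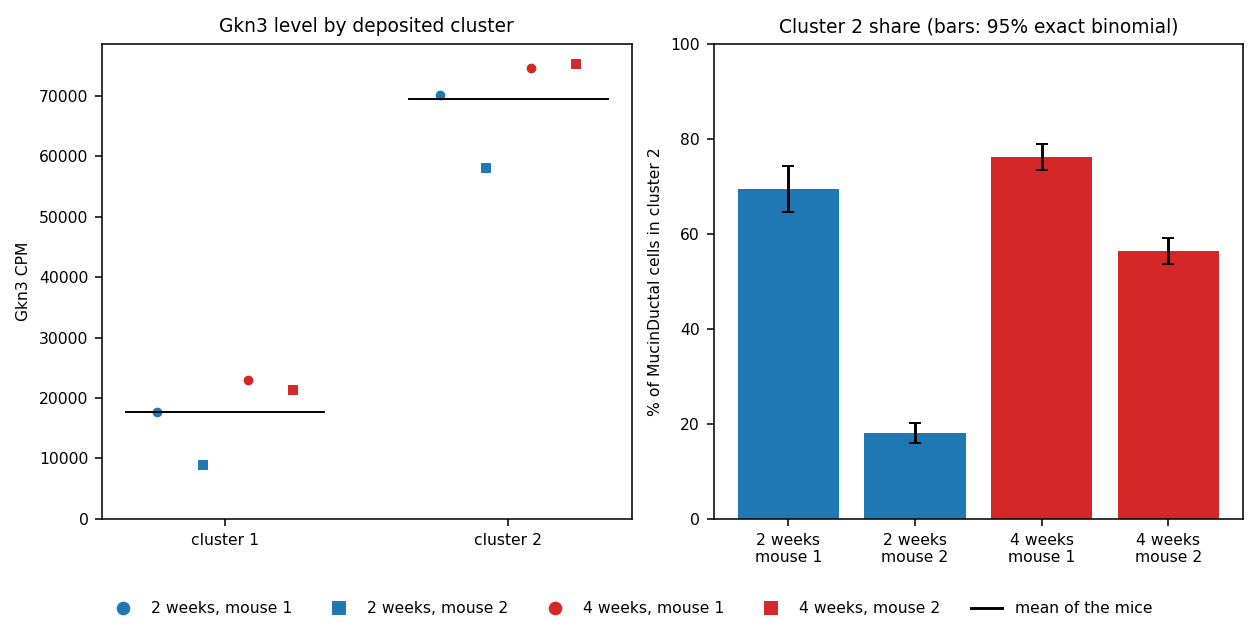
Left, Gkn3 CPM in clusters 1 and 2 of the MucinDuctal cells, 1 point per mouse with the mean as a line; right, percent of MucinDuctal cells in cluster 2 with 95% exact binomial intervals, which cover counting error only. Cluster 2 lies at 58080 CPM or above in each mouse and cluster 1 at 23031 CPM or below, and 2-week mouse 2 has the smallest cluster 2 share, 18.0%.

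Gkn3 followed some mucous neck genes from cell to cell and ran against others. The 3 non-member genes most like it over 31 sums of mouse and type were Muc6 (Pearson r = 0.99 of log2(CPM + 1)), Aqp5 (0.97) and Aqp1 (0.97), both water channels, among 10148 genes ranked. Across MucinDuctal cells of a mouse, the mean r over 4 mice was 0.78 with Muc6 (0.71 to 0.81), 0.72 with Ppib and 0.70 with Agr2, which act in protein folding in the secretory pathway, among 9489 genes ranked. Of the 10 mucous neck and SPEM genes of the list with a value, 7 had a mean r above 0, among them Pgc (0.69), Tff2 (0.50) and, at the low end, Cftr (0.07). The other 3 were below 0, Clu (-0.48), Dmbt1 (-0.39) and Wfdc2 (-0.24). These correlations share libraries and depth within each mouse and carry no test.

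Gkn1 was detected in few cells. MucinDuctal cells had 1.27 and 1.86 CPM at 2 weeks and 5.01 and 5.32 CPM at 4 weeks, from 11, 69, 90 and 124 UMIs. Both 4-week mice were above both 2-week mice. Of 13362 typed cells, 189 had a Gkn1 UMI, 160 of them MucinDuctal, and 132 of the 189 had exactly 1. The highest cell had 30. Acinar/MucinDuctal cells followed with 28 UMIs in 16 cells, and every other type had 4 UMIs or fewer. A Gkn1 UMI was present in 2.70% and 3.31% of MucinDuctal cells at 2 weeks and in 5.31% and 4.20% at 4 weeks.

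Gkn2 was rarer still. MucinDuctal cells had 0 and 0.783 CPM at 2 weeks and 0.278 and 0.686 CPM at 4 weeks, from 0, 29, 5 and 16 UMIs, and the groups overlapped. Only 23 typed cells had a UMI, 20 of them MucinDuctal, and 40 of its 53 UMIs lay in 10 cells. No Gkn2 UMI was found in 3698 acinar cells, which allows a share of cells with a captured UMI of up to 0.0811%, in 1280 Tuft cells (up to 0.234%) or in 1208 EEC (up to 0.248%). These limits do not bound the cells that express the gene, since only 20 of the MucinDuctal cells had a UMI. None was found in the 7778 cells without a deposited type either (up to 0.0386%).

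The few cells with Gkn1 or Gkn2 more often held the pit-cell peptide gene Tff1. In MucinDuctal cells, Tff1 was found in 46.2% of the Gkn1-positive and 25.6% of the Gkn1-negative cells, and in 75.0% of the 20 Gkn2-positive and 26.2% of the Gkn2-negative cells. Depth differed in the same direction, with a median of 24390 UMIs in Gkn1-positive and 17689 in Gkn1-negative cells. For Gkn2 the medians were 26846 and 17962 UMIs. The part of depth, and of differences between mice or clusters, in these shares was not tested. Muc5ac was found in none of the 160 Gkn1-positive MucinDuctal cells and in 0.235% of the others. Tff2 and Gkn3 were present in 100% of the Gkn1-positive cells, and also in 99.3% and 99.7% of the Gkn1-negative ones.

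Ctse was the steadiest of the 6 genes in MucinDuctal cells, with 360 and 385 CPM at 2 weeks and 362 and 317 CPM at 4 weeks. The groups overlapped, and 93.5% to 97.8% of the cells had a UMI. Acinar/MucinDuctal cells had 149 and 187 CPM at 2 weeks and 166 and 141 CPM at 4 weeks. Acinar cells had 6.89, 31.8, 6.13 and 11.5 CPM in the same order. The log2 ratio of MucinDuctal to Acinar, on log2(CPM + 1), was 4.85 ± 0.97 (SD, n = 4). B cell-like and T cell-like cells had 35.3 to 109 CPM of Ctse, above the acinar cells, so they do not serve as an empty reference for this gene.

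Vsig1 was almost absent from acinar cells and highest in MucinDuctal cells. It was lower in Acinar/MucinDuctal (mean of 52.5 CPM), Ductal-like (36.3) and Tuft/EEC.Progenitor cells (35.1) and in a part of the enteroendocrine cells. MucinDuctal cells had 126 and 102 CPM at 2 weeks and 169 and 158 CPM at 4 weeks, without overlap. Acinar cells had 0.957 to 2.77 CPM, B cell-like cells 0 to 2.20 and T cell-like cells 0 to 3.97 CPM. The log2 ratio of MucinDuctal to Acinar was 5.78 ± 0.71 (SD, n = 4). EEC had 47.9 and 11.6 CPM at 2 weeks and 45.5 and 44.5 CPM at 4 weeks, with mouse 2 of the 2-week pair low, whereas Tuft cells had 1.57 to 9.36 CPM.

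Anxa10 did not follow the order of the other genes, since Tuft cells held as much of it as MucinDuctal cells. MucinDuctal cells had 69.2 and 80.8 CPM at 2 weeks and 119 and 129 CPM at 4 weeks, without overlap. Tuft cells had 109 and 104 CPM at 2 weeks and 85.1 and 133 CPM at 4 weeks, with overlap. The means of these types, 99.5 ± 29.1 and 108 ± 19.8 CPM (SD, n = 4), differed by less than their spread. Acinar cells had 28.1 and 16.5 CPM at 2 weeks and 7.08 and 38.1 CPM at 4 weeks, against 1.55 to 2.20 CPM in B cell-like and 2.41 to 12.0 CPM in T cell-like cells. Up to 49 UMIs were counted in 1 acinar cell, and 11.8% to 31.8% of acinar cells had a UMI.

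The order of mean levels differed between genes. For Ctse it was MucinDuctal (356 CPM), Tuft/EEC.Progenitor (168), Acinar/MucinDuctal (161), Ductal-like (127), Tuft (47.8), Acinar.Prolif (19.3), Acinar (14.1) and EEC (10.7). The ranges of Tuft/EEC.Progenitor, Acinar/MucinDuctal and Ductal-like overlapped, as did those of Acinar.Prolif, Acinar and EEC, although Acinar.Prolif was above Acinar in 4 of 4 mice. For Vsig1 it was MucinDuctal (139 CPM), Acinar/MucinDuctal (52.5), EEC (37.4), Ductal-like (36.3), Tuft/EEC.Progenitor (35.1), Tuft (5.78), Acinar.Prolif (1.79) and Acinar (1.60). The 4 types from Acinar/MucinDuctal to Tuft/EEC.Progenitor overlapped in their ranges, and no neighbour among them was higher in every mouse. For Anxa10 it was Tuft (108 CPM), MucinDuctal (99.5), Tuft/EEC.Progenitor (95.9), Acinar/MucinDuctal (52.9), Ductal-like (35.5), Acinar (22.4), EEC (9.37) and Acinar.Prolif (8.30). The first 3 of these overlapped, with Tuft above MucinDuctal in 3 of 4 mice and MucinDuctal above Tuft/EEC.Progenitor in 2 of 3. Tuft/EEC.Progenitor means leave out 2-week mouse 1, which had 10 such cells.

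Among the deposited subtypes of tuft and enteroendocrine cells, mean Anxa10 was highest in Tuft-2 and mean Vsig1 in Ppy+ cells. The subtype named MucinDuctalProgenitor held both genes. Tuft-2 cells had Anxa10 at 189 and 143 CPM at 2 weeks and 161 and 210 CPM at 4 weeks, and Tuft-1 cells at 129, 120, 171 and 97.3 CPM. Tuft-3 cells had 32.1, 38.1, 27.4 and 84.7 CPM, below Tuft-2 in 4 of 4 mice. Ppy+ cells (pancreatic polypeptide) had Vsig1 at 76.0 and 36.2 CPM at 2 weeks and 91.0 and 117 CPM at 4 weeks, against 66.3, 15.7, 62.0 and 57.0 CPM in Epsilon (Ghrl+) cells, which make ghrelin. Delta (Sst+) cells, which make somatostatin, had 12.7 to 28.8 CPM, and the Tuft subtypes had 0 to 7.68 CPM. Ctse was highest in the subtype named MucinDuctalProgenitor, at 139, 266, 189 and 129 CPM, where Gkn3 was 1958, 6644, 11778 and 6788 CPM. In Tuft-1 and MucinDuctalProgenitor, the values of 2-week mouse 1 and 4-week mouse 1 came from fewer than 20 cells. Without these mice, mean Ctse in MucinDuctalProgenitor was 198 CPM and mean Anxa10 in Tuft-1 was 109 CPM. MucinDuctalProgenitor means without them were 78.1 CPM for Anxa10 and 41.4 CPM for Vsig1.

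**Figure D4:**
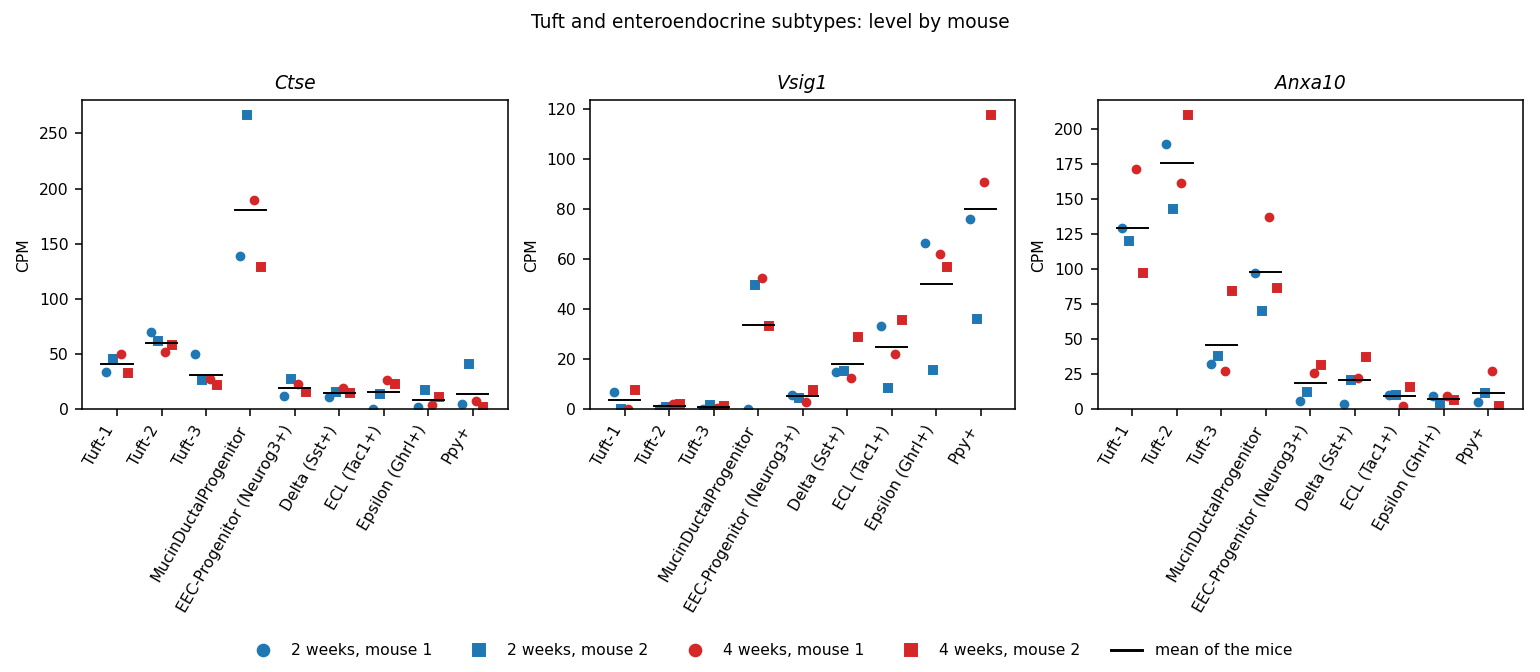
CPM of Ctse, Vsig1 and Anxa10 in the 9 deposited tuft and enteroendocrine subtypes, 1 point per mouse with the mean as a line; y axes start at 0 and differ between genes. Anxa10 is high in Tuft-1 and Tuft-2, Vsig1 in Ppy+ and Epsilon (Ghrl+) cells, and Ctse in MucinDuctalProgenitor cells. MucinDuctalProgenitor cells also hold Anxa10 and Vsig1. Tuft-1 and MucinDuctalProgenitor had fewer than 20 cells in 2-week mouse 1 and in 4-week mouse 1.

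In MucinDuctal cells, Vsig1 and Anxa10 were each found more often in cells that held the other. Anxa10 was detected in 60.5% of the Vsig1-positive and 34.9% of the Vsig1-negative MucinDuctal cells (means of 4 mice), and Vsig1 in 88.8% of the Anxa10-positive and 73.3% of the Anxa10-negative cells. At 1500 UMIs per cell the Anxa10 shares were 16.9% and 11.5%, and the Vsig1 shares 25.5% and 17.8%, in the same direction in 4 of 4 mice. The correlation between them across cells was 0.29 (0.26 to 0.32 over the mice). Gkn3 and Anxa10 had a mean r of -0.09 (-0.15 to -0.02). A Gkn1 and Gkn2 pair gave 0.24 (0.07 to 0.40) and rests on 20 Gkn2-positive cells.

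The remaining members had other closest genes. Over the 31 sums Ctse was most like Foxq1, a forkhead factor (0.97), Slc12a2 (0.96) and Zfp36l2 (0.96), Vsig1 like F5, Lrig1 and Golm1 (0.94 to 0.96), and Anxa10 like Tmc5, AI463229 and Lrrc26 (0.89 to 0.91). Across MucinDuctal cells, Anxa10 was most like Krt8, a simple-epithelial keratin (0.32), Cldn18, a gastric tight-junction gene (0.31), and Tmsb4x (0.31). Among non-members, Ctse and Vsig1 were both most like Fxyd3 (0.24), whereas Vsig1 had 0.29 with the member Anxa10. Gkn1 was most like Erp44, Cope and Selenos over the sums (0.79 to 0.80) and Gkn2 like Cgref1, Galnt6 and 1700066B19Rik (0.65 to 0.66). In cells their highest values with a non-member, 0.12 with Tff2 and 0.09 with Tff1, are too weak in counts this sparse to be read.

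The design compares 4 with 2 weeks of caerulein, and asks whether these genes changed with longer injury. Injury began at the same age in all mice, so a longer course also ended at an older age and longer after tamoxifen. These cannot be told apart here. In MucinDuctal cells Gkn1, Vsig1 and Anxa10 were higher in both 4-week mice than in both 2-week mice, but none of the 6 genes passed edgeR's quasi-likelihood test with Benjamini-Hochberg adjustment. Without overlap and higher at 4 weeks were 3 of 6 genes, against 9.54% of the 13463 genes tested, and the same 3 of 6 had an unadjusted p under 0.05 and were higher, against 2.32%. The log2 fold change of Gkn1 was 1.80 (SE 0.30, unadjusted p = 0.00228, edgeR adjusted p = 0.824). For Anxa10 it was 0.85 (SE 0.14, unadjusted p = 0.00194, edgeR adjusted p = 0.824), and for Vsig1 0.64 (SE 0.18, unadjusted p = 0.0176, edgeR adjusted p = 0.824). Gkn3 differed by 0.76 (SE 0.69), Gkn2 by 0.09 (SE 1.09) and Ctse by -0.01 (SE 0.17) on the log2 scale, and none of these had an unadjusted p under 0.05 (edgeR). The Gkn3 difference turned on single 2-week mice, with 1.86 without mouse 1 and 0.16 without mouse 2. The median over the 6 was 0.70, beside -0.01 over all genes tested.

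No gene at all was called in MucinDuctal cells by edgeR (0% of those tested), and DESeq2 called 45. By edgeR, 726 of 13463 genes had an unadjusted p under 0.05, with 2.32% of all genes higher and 3.08% lower. Without 2-week mouse 1 edgeR called 191 genes and without 2-week mouse 2 it called 53, and Anxa10 had an adjusted p of 0.0881 and 0.129 there. DESeq2 gave Anxa10 an adjusted p of 0.0189 at a log2 fold change of 0.85; over all alternatives tried, its adjusted p ran from 0.0189 to 1.00 and its fold change from 0.78 to 0.94. MucinDuctal cells held fewer UMIs at 4 weeks, with medians of 15110 and 15305 against 19304 and 21810 in the 2-week mice, and the part of this in the result was not tested. The summed level of 6 fibroblast markers in MucinDuctal cells was lower at 4 weeks without overlap (29.4 and 21.5, then 4.34 and 15.8 CPM, none of the 6 at 0), while B cell, T cell, macrophage and endothelial markers reached at most 21.1 CPM and overlapped. Their part was not tested either. Nothing in the labels says whether cages or days were shared. The spread between these mice therefore also holds any difference in handling or library. A batch shared by the mice of a time point could not be told apart from time.

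**Figure D5:**
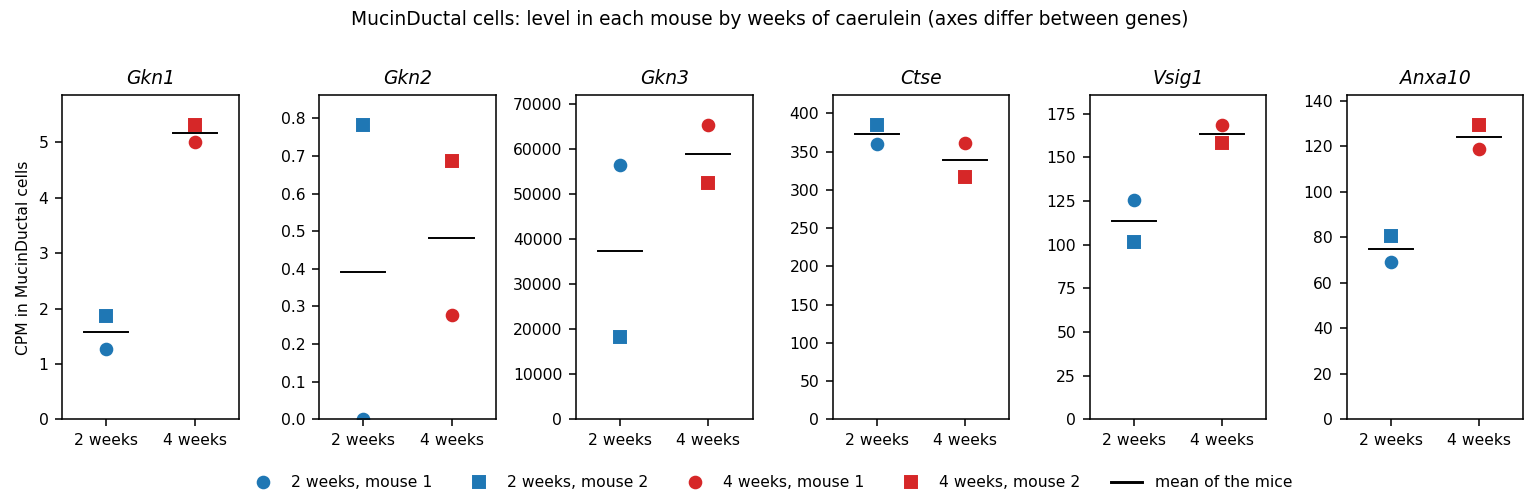
CPM of the 6 genes in MucinDuctal cells of each mouse at 2 and 4 weeks of caerulein, with the mean of each pair as a line; y axes start at 0 and differ between genes. Gkn1, Vsig1 and Anxa10 do not overlap between the time points, whereas Gkn2, Gkn3 and Ctse do.

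The difference in Anxa10 was present in both MucinDuctal clusters. Cluster 1 had 94.4 and 83.1 CPM at 2 weeks and 169 and 158 CPM at 4 weeks (log2 fold change 0.92, SE 0.14, edgeR adjusted p = 0.265), and cluster 2 had 60.2 and 70.9 CPM and 108 and 109 CPM (0.82, SE 0.14, edgeR adjusted p = 0.586). In cluster 1, where edgeR called 2 genes or 0.0168% of those tested and no member, Gkn1, Gkn3, Vsig1 and Anxa10 were higher at 4 weeks without overlap (14.2% of all genes) and Ctse was lower without overlap (22.9%). In cluster 2, where 0% were called, Gkn1, Gkn3, Vsig1 and Anxa10 were again higher without overlap (10.6% of all genes). Gkn1 in cluster 1 rested on 3 and 35 UMIs at 2 weeks and 6 and 46 at 4 weeks, 30 of the 46 in 1 cell. Without the highest doublet scores its level there was 1.39 and 1.18 CPM at 2 weeks against 0.97 and 4.70 CPM at 4 weeks, which overlap. The shares of cells with a Gkn1 UMI overlapped in cluster 1 (2.65% and 2.11% against 1.75% and 2.54%) and in cluster 2 (2.71% and 8.80% against 6.41% and 5.48%). Gkn3 differed by 0.78 (SE 0.37) in cluster 1 and 0.32 (SE 0.32) in cluster 2.

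Other types gave no call for any member. The share of genes called by edgeR was 0% in Acinar, Acinar/MucinDuctal, Ductal-like, Tuft and EEC and 0.00995% in Acinar.Prolif. DESeq2 called 17, 21, 1, 30, 14 and 2 genes in that order. An unadjusted edgeR p under 0.05 was found for 344 of 12343, 397 of 11620, 461 of 8748, 738 of 10967, 479 of 11869 and 246 of 10046 genes. In EEC, Gkn3 and Anxa10 were higher at 4 weeks without overlap, 2 of 4 members tested against 8.85% of all genes. Summed fibroblast markers (41.7 and 22.3, then 6.84 and 14.6 CPM) and B cell markers (34.0 and 31.4, then 24.5 and 14.0 CPM) were lower in EEC without overlap. So was median depth (14682 and 13243, then 11594 and 11136 UMIs). T cell, macrophage and endothelial markers overlapped. The part of these in the EEC differences was not tested. Gkn3 there differed by 0.61 (SE 0.16, edgeR adjusted p = 0.986) at CPM values within the range of the B cell-like and T cell-like cells, where Gkn3 was also higher at 4 weeks without overlap. In Tuft cells Ctse was lower without overlap, 1 of 4 members against 17.3%, at 61.5 and 52.0 CPM and then 39.1 and 38.7 CPM (log2 fold change -0.53, SE 0.15, edgeR adjusted p = 0.462). The summed level of 6 macrophage markers in Tuft cells was also lower without overlap. It was 104 and 55.1 CPM and then 13.5 and 10.7 CPM, with none of the 6 at 0. Median depth of Tuft cells was lower as well (19652 and 20481, then 14809 and 15806 UMIs). Mean Ctse differed between subtypes, with 60.5 CPM in Tuft-2 and 31.6 CPM in Tuft-3 cells. The part of markers, depth and subtype mix in the Ctse difference was not tested. In Ductal-like cells Gkn3 was lower without overlap, 1 of 4 against 18.7% (-0.95, SE 0.37, edgeR adjusted p = 0.900). Their median depth was also lower (31156 and 38506, then 8889 and 21039 UMIs). More of them had exactly 1 EYFP UMI (21.1% and 14.3%, then 65.2% and 36.4%). The part of these in the Gkn3 difference was not tested. Log2 fold changes moved when 1 of the 2-week mice was left out, which leaves a lone mouse at 2 weeks. Without 2-week mouse 1, Ctse was -1.20 and Vsig1 -1.28 in Ductal-like cells, against -0.74 and -0.87 with all 4 mice. In EEC, Gkn3 was then 0.73 and Vsig1 2.10, against 0.61 and 0.68. Without 2-week mouse 2, Gkn3 in Ductal-like cells was -1.14. With all 4 mice none of these passed the edgeR test.

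Whether the time effect in MucinDuctal cells differed from that in other types was tested as an interaction. Against Acinar cells, 0% of 14098 genes were called, 430 had an unadjusted p under 0.05 and DESeq2 called 0. Against Acinar/MucinDuctal cells, 19 of 13022 genes (0.146%) were called and no member was among them, while 718 had an unadjusted p under 0.05 (edgeR) and DESeq2 called 23. The Anxa10 time effect was larger in MucinDuctal than in Acinar/MucinDuctal cells by 0.67 (SE 0.15, edgeR adjusted p = 0.227). Leaving out 1 mouse gave 0.56 to 0.86. With no filter on low counts the edgeR adjusted p was 0.00613, where 177 of 21061 genes were called. Over all alternatives the adjusted p ran up to 1.00. Without 2-week mouse 1, the Vsig1 difference was 0.56 against Acinar/MucinDuctal and 1.23 against Acinar cells. With all 4 mice it was 0.28 and 0.47, and neither passed the edgeR test. Vsig1 in Acinar cells, at 0.957 to 2.77 CPM, lay in the range of the T cell-like cells (0 to 3.97 CPM). Acinar/MucinDuctal cells had 54.5 and 48.9 CPM of Anxa10 at 2 weeks and 54.6 and 53.7 CPM at 4 weeks. In these cells the summed level of 6 macrophage markers was 55.7 and 64.1 CPM, then 222 and 242 CPM, and that of 6 B cell markers 9.42 and 13.9 CPM, then 132 and 34.2 CPM, with none at 0. The gene of smallest p in this interaction was H2-Aa, an antigen-presentation gene of immune cells. The median depth of Acinar/MucinDuctal cells was 19556 UMIs in 2-week mouse 2 against 2659 to 3555 in the other mice. The part of these differences in the Anxa10 value was not tested.

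Other genes of gastric epithelium gave the setting. Of 15 further pit-type genes, 14 were in the tables, 10 were tested in MucinDuctal cells and none was called in either direction. Cldn18 was the one with an unadjusted p under 0.05, at 33.5 and 22.2 CPM at 2 weeks and 59.9 and 66.6 CPM at 4 weeks (log2 fold change 1.31, SE 0.25, edgeR adjusted p = 0.824). Tspan8 (943 ± 98.4 CPM), Sult1c2 (174 ± 47.1 CPM) and Foxq1 (151 ± 19.4 CPM) were well detected in MucinDuctal cells, whereas Capn8, Capn9, Aldh3a1 and Mucl3 stayed under 1 CPM on average (SD, n = 4). Of 12 mucous neck and SPEM genes, 11 were in the tables and tested and none was called. Of 19 foregut transcription factors, 18 were tested and none was called. Gata5 (74.6 ± 13.2 CPM against 1.30 ± 0.91 CPM in Acinar) and Sox9 (639 ± 105 against 50.5 ± 33.9 CPM) were higher in MucinDuctal cells, and Sox2 had no UMI in either type (SD, n = 4). The median log2 fold changes of these lists in MucinDuctal cells were 0.09, 0.25 and 0.05.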

How the data were processed

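Per the labels, EYFP-positive pancreas cells of 4 mice were sorted and sequenced as 10x Genomics 3′ libraries. The authors deposited UMI counts for each gene in each cell, not normalized, and tables of cell type, subtype and cluster labels. Cell Ranger 4.0.0, Seurat 3.2.3 and mm10 are named in the submitters' processing notes, whose data processing text was not used here. Deposited cells held at least 1000 UMIs and at most 6.00% mitochondrial UMIs. Of 21140 cells, 7778 had no deposited type; the table of typed cells held the same counts as the merged one (summed difference 0). Libraries held 72459531 to 103610807 UMIs.

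Counts were summed per mouse and deposited type. Time points were compared in the 7 types with at least 20 cells in each mouse, with edgeR 4.0.16 (quasi-likelihood, robust, TMM, filterByExpr; R 4.3.3) over all genes that passed the filter, adjusted within each type at 0.05, n = 2 mice per time point. Gkn1 and Gkn2 passed the filter in MucinDuctal cells alone and the other 4 members in all 7 types. DESeq2 1.42.0 was an alternative. Differences of time effects were fitted with mouse as a block within the interaction model. On simulated MucinDuctal counts of 13624 genes, 192 of 200 genes changed by 4-fold were recovered, with 3 false calls, at a dispersion of 0.06. That dispersion was set in advance for every gene, not estimated from these mice, and the changed genes were drawn from well-counted ones. The recovery therefore does not measure the power for the smaller changes of the members. Shares of cells were also computed at 1500 and 5000 UMIs per cell (20 seeded draws), leaving out shallower cells. B cell-like and T cell-like cells came from clustering the cells without a type (scanpy 1.11.5) and served as reference for free RNA. Scrublet called 32 cells (0.151%), too few to have worked, so the 905 highest scores were left out as an alternative. Intervals and limits from a count of 0 (3 cells) cover counting error only.

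The genes named are the 6 members, the genes of fixed lists, the 3 non-member genes most like each member among those with a mean of at least 5 CPM, or with a UMI in at least 10% of MucinDuctal cells, and the gene of smallest p in a type. The members and lists were chosen with earlier results of these data known. Promoter windows come from RefSeq (GRCm38.p6) and matched 5 of 6 members by symbol; gene positions come from GENCODE M21.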

Additional observations from a re-analysis of the deposited data

Results flagged for a closer look

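Cells without a deposited type were outside the comparisons. Apart from the B cell-like and T cell-like clusters that serve as reference, their clusters gave 16 values of members at more than 5 times the higher of the reference levels and with at least 20 UMIs, and a limit of 2 times would have given 25. In 293 enteroendocrine-like cells (median of 5340 UMIs) Gkn3 was at 28598 CPM, with 38192 and 23170 CPM in the 2-week mice and 31086 and 23186 CPM in the 4-week mice, whereas the deposited EEC type had 468 to 811 CPM. In the same 293 cells Vsig1 was at 68.7 CPM and Anxa10 at 37.6 CPM, and Ctse, below the limit at 2.81 times the reference, was at 190 CPM.

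Of the mucin/ductal-like cells, a cluster of 251 had Gkn3 at 23150 CPM, Vsig1 at 91.9 and Anxa10 at 124 CPM, and a cluster of 992 had Gkn3 at 25339 CPM, Vsig1 at 67.8 and Anxa10 at 53.0 CPM. A cluster of 669 acinar-like cells had Vsig1 at 15.6 and Anxa10 at 31.2 CPM. Gkn3 was also above the limit in unnamed clusters of 61, 68, 38 and 77 cells, at 35181, 12287, 6860 and 6837 CPM. The first 3 came from 4-week mouse 2 in 60 of 61, 68 of 68 and 37 of 38 cells, and T cell-like cells of that mouse had 1778 CPM. The cluster of 77 had 980 CPM in 2-week mouse 1 and 9827 CPM in 4-week mouse 1, where T cell-like cells had 295 and 1057 CPM. In 111 tuft-like cells (median of 1930 UMIs) Anxa10 was at 117 CPM from 48 UMIs in 15 cells, with 189 CPM in 2-week mouse 2 and 16.6 CPM in 4-week mouse 1, the mice with at least 20 such cells. The part of doublets in these values was not tested. Groups of 2 mice are too small for a check of single outlying samples.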

How the results depend on the processing

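No paired analysis was possible because the replicate numbers only follow accession order. Where a count or call changed below, the cause was not tested unless the setting itself removed cells, mice or depth. Genes called between time points, with all mice 0 or 1 by edgeR in each type, were 17 in Acinar, 2 in Acinar.Prolif, 21 in Acinar/MucinDuctal, 45 in MucinDuctal, 1 among Ductal-like cells, 30 in Tuft and 14 in EEC by DESeq2. With no filter on low counts they were 286, 51, 128, 6, 81, 266 and 74 in the same order, and 19 and 177 for the difference of MucinDuctal from Acinar and from Acinar/MucinDuctal. Without the highest doublet scores they were 2 in Acinar, 1 in Tuft and 41 for the difference from Acinar/MucinDuctal, and a fit that was not robust gave 0 in Acinar.Prolif. Clusters, an alternative chosen after seeing the data, gave 2 genes in cluster 1 and 1 in cluster 3. Leaving out 1 mouse gave 13 to 129 genes in Acinar, 5 to 143 in Acinar.Prolif, 0 to 122 in Acinar/MucinDuctal, 0 to 191 in MucinDuctal, 0 to 230 among Ductal-like cells, 5 to 273 in Tuft and 0 to 366 in EEC, and 2 to 955 and 10 to 414 for the differences from Acinar and Acinar/MucinDuctal. The highest counts came without a 2-week mouse. A lone mouse is assumed there to vary like the other group.

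Of 30 time effects of members, 193 of 197 other values and 89 of 120 leave-one-out values kept direction and side of the threshold. Direction reversed in 26 of the 120 leave-one-out values. Of 10 differences of time effects, 57 of 60 other and 25 of 40 leave-one-out values did, and of the rest of the 40, 4 gained a call and 11 reversed. Gkn1, Gkn3, Vsig1 and Anxa10 in MucinDuctal cells stayed above 0 in 4 of 4 leave-outs, from 1.63 to 2.10, 0.16 to 1.86, 0.47 to 0.85 and 0.78 to 0.94. Vsig1 in Acinar turned to -0.15 without the highest doublet scores and Ctse in Acinar/MucinDuctal to 0.0093 in cluster 4, while Anxa10 in MucinDuctal passed by DESeq2 (0.85) and Gkn3 in EEC with no filter (0.60). Leave-one-out log2 fold changes ran in Acinar from -0.28 to 0.78 for Gkn3, -1.19 to 0.66 for Ctse, -0.39 to 0.74 for Vsig1 and -1.19 to 1.13 for Anxa10. In Acinar.Prolif they ran from -0.23 to 1.45 for Gkn3, -0.78 to 1.24 for Ctse and -0.54 to 1.13 for Anxa10, and for Ctse in Acinar/MucinDuctal from -0.23 to 0.14. In MucinDuctal they ran from -0.62 to 6.08 for Gkn2 and -0.12 to 0.093 for Ctse, and in Ductal-like from -1.56 to -0.53 for Gkn3, -1.20 to -0.047 for Ctse, -2.08 to -0.22 for Vsig1 and -2.44 to 0.73 for Anxa10. In Tuft they ran from -0.035 to 0.82 for Gkn3, -0.69 to 1.90 for Vsig1 and -0.35 to 0.34 for Anxa10, and in EEC from 0.43 to 0.76 for Gkn3, -0.81 to 1.44 for Ctse and -0.061 to 2.10 for Vsig1. Differences of MucinDuctal from Acinar ran from -0.59 to 2.15 for Gkn3, -0.60 to 1.20 for Ctse, -0.27 to 1.23 for Vsig1 and -0.35 to 1.88 for Anxa10. From Acinar/MucinDuctal they ran from -0.79 to 2.23 for Gkn1, -0.016 to 0.27 for Gkn3, -0.12 to 0.19 for Ctse, -0.012 to 0.56 for Vsig1 and 0.56 to 0.86 for Anxa10. That of Gkn1 was 0.27 by DESeq2 and 0.065 without the highest doublet scores, and Gkn2 gave none with a finite error.

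Detection fell with depth. The mean percent of MucinDuctal cells at 2 UMIs or more was 1.17 for Gkn1, 88.8 for Ctse, 61.4 for Vsig1 and 36.7 for Anxa10. At 1500 UMIs per cell it was 0.424 for Gkn1, 0.0464 for Gkn2, 96.8 for Gkn3, 39.6 for Ctse, 18.7 for Vsig1 and 12.5 for Anxa10, and at 5000 it was 1.19, 98.6, 77.8, 46.5 and 30.3 without Gkn2. The share of Vsig1 with minus without Anxa10 was 23.7 percentage points at 2 UMIs and 7.73 at 1500, that of Ctse by Vsig1 3.24 at 1500 and by Anxa10 8.75 at 2 UMIs. With acinar enzymes left out of library sizes, the log2 ratio of MucinDuctal to Acinar was 3.80 for Ctse and 5.03 for Vsig1.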
